A study of Mus musculus with 24 samples.

Results

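The 9 genes described here carry Hedgehog signals from the cell surface to the nucleus, and they were followed through diaphragm development in the mouse. They are the Gli transcription factors Gli1, Gli2 and Gli3, the receptor Ptch1, the transducer Smo, the decoy receptor Hhip, the Gli inhibitor Sufu, the ciliary kinesin Kif7, and Disp1, which releases the ligand from the cells that make it. They were chosen by name, the last pair as hernia genes, and each is represented by the single-gene probe set with the highest mean signal, so that 9 of 19351 measured genes are described. The samples were C57BL/6J embryos with no mutation or treatment named: pleuroperitoneal folds at E11.5, pleuroperitoneal folds at E12.5, and the muscularised diaphragm at E16.5, with 8 samples at each stage and 1 Affymetrix Mouse Gene 1.0 ST array per sample. Tissue was laser-captured from frozen mid-thoracic sections, cut transversely for the folds and sagittally for the diaphragm, so that the plane of section cannot be told apart from the step to E16.5. The labels do not say which embryo or litter a sample came from, or whether embryos were pooled, and the p-values below measure only the spread between these samples.

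Hedgehog ligands bind Ptch1, which otherwise holds Smo inactive. Active Smo, working at the primary cilium, stops the conversion of Gli proteins to repressors and releases Gli activators from Sufu. Ptch1, Hhip and Gli1 are themselves transcribed in response to the signal in many tissues, whereas Gli3 acts mainly as a repressor when the signal is low and Gli2 mainly as an activator when it is high. The pleuroperitoneal folds are transient mesenchymal folds that give rise to the connective tissue of the diaphragm and receive its migrating muscle precursors.

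The arrays carried the marks of the labelled tissues. Of 15 listed markers of fold mesenchyme and muscle connective tissue, 10 were lower and 1, Prrx1, was higher in E16.5 diaphragm than in E12.5 folds, and the mean of the list lay between 9.02 and 9.25 log2 units in the E11.5 arrays, between 8.79 and 9.15 in the E12.5 arrays and between 8.15 and 8.40 in the E16.5 arrays. Of 14 skeletal muscle markers, 12 were higher and 1, Myod1, was lower at E16.5 than at E12.5, and their mean lay between 8.11 and 9.34, between 8.27 and 11.29, and between 12.01 and 12.58 in the arrays of E11.5, E12.5 and E16.5. Transcripts of other tissues moved with stage as well. All 9 measured hepatocyte markers were higher at E16.5 than at E12.5, with list means of 6.95 to 7.38 at E11.5, 8.08 to 12.30 at E12.5 and 9.91 to 12.17 at E16.5. Endothelial markers were higher for 7 of 9 genes and lung epithelial markers for 2 of 8, Sftpc and Cdh1. The endothelial list means were 8.01 to 8.43 at E11.5, 7.87 to 8.44 at E12.5 and 8.36 to 9.36 at E16.5. Within E16.5 they were 9.01 to 9.36 in replicates 1 to 4 and 8.36 to 8.67 in replicates 5 to 8. Only replicates 5 to 8 overlapped the folds. Some markers of other tissues were lower. Of 6 red blood cell markers, 2 were lower at E16.5 than at E12.5, the embryonic globins Hbb-y and Hba-x. The list means were 9.56 to 9.89 at E11.5, 9.34 to 10.41 at E12.5 and 7.69 to 8.98 at E16.5. The median change of the 6 markers was only -0.15 against E12.5 and 0.02 against E11.5, so the list mean does not stand for most of them. Of 7 neuronal markers, 2 were lower, Isl1 and Nefm, with list means of 6.98 to 7.78, 6.82 to 7.13 and 6.43 to 7.03 at the same stages. In E16.5 diaphragm against E12.5 folds, 3018 of all 19351 genes (15.6%) were lower and 2223 were higher. The counts of 2 markers in the lung, red blood cell and neuronal lists rest on few genes and are to be read against these shares. The part of these tissues in the results below was not tested, and in bulk tissue fewer cells of a type cannot be told apart from less RNA per cell.

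The promoters of Gli3 and Gli2 are shown because these genes had the largest falls of the 9 against E12.5 folds. Each sequence holds the 250 bases before a start site, from RefSeq on build GRCm38.p6, and the Gli2 start site lies inside the full annotated span of the gene. Capitals mark the GC box GGGCGG, a binding motif of Sp1-type factors, found on either strand. The Gli3 window is chr13:15463473-15463722 on the plus strand and the Gli2 window is chr1:119053620-119053869 on the minus strand.
Gli3: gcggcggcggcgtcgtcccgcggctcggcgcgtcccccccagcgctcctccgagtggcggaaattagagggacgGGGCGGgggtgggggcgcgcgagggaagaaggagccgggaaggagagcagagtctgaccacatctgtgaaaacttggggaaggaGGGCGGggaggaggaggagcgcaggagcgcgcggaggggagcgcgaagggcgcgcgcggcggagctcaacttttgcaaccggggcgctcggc
Gli2: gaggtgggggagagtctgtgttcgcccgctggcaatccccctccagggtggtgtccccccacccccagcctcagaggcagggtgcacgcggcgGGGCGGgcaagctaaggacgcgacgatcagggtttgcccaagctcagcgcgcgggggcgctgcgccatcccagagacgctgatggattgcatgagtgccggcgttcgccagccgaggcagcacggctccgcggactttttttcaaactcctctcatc
The Gli3 window holds 2 such boxes and 72.8% G and C, and the Gli2 window 1 box and 67.2%, against a median of 52.4% G and C over all 32851 promoter windows. The table held 9 windows for 8 of the 9 genes, with no entry for Gli1. The GC box was found in 6 of these 9 windows, against 32.7% of all windows. The Gli consensus GACCACCCA was found, on either strand, in 0 of the 9 windows and in 0.225% of all windows. A match or its absence describes only the letters in these windows.

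**Figure D1:**
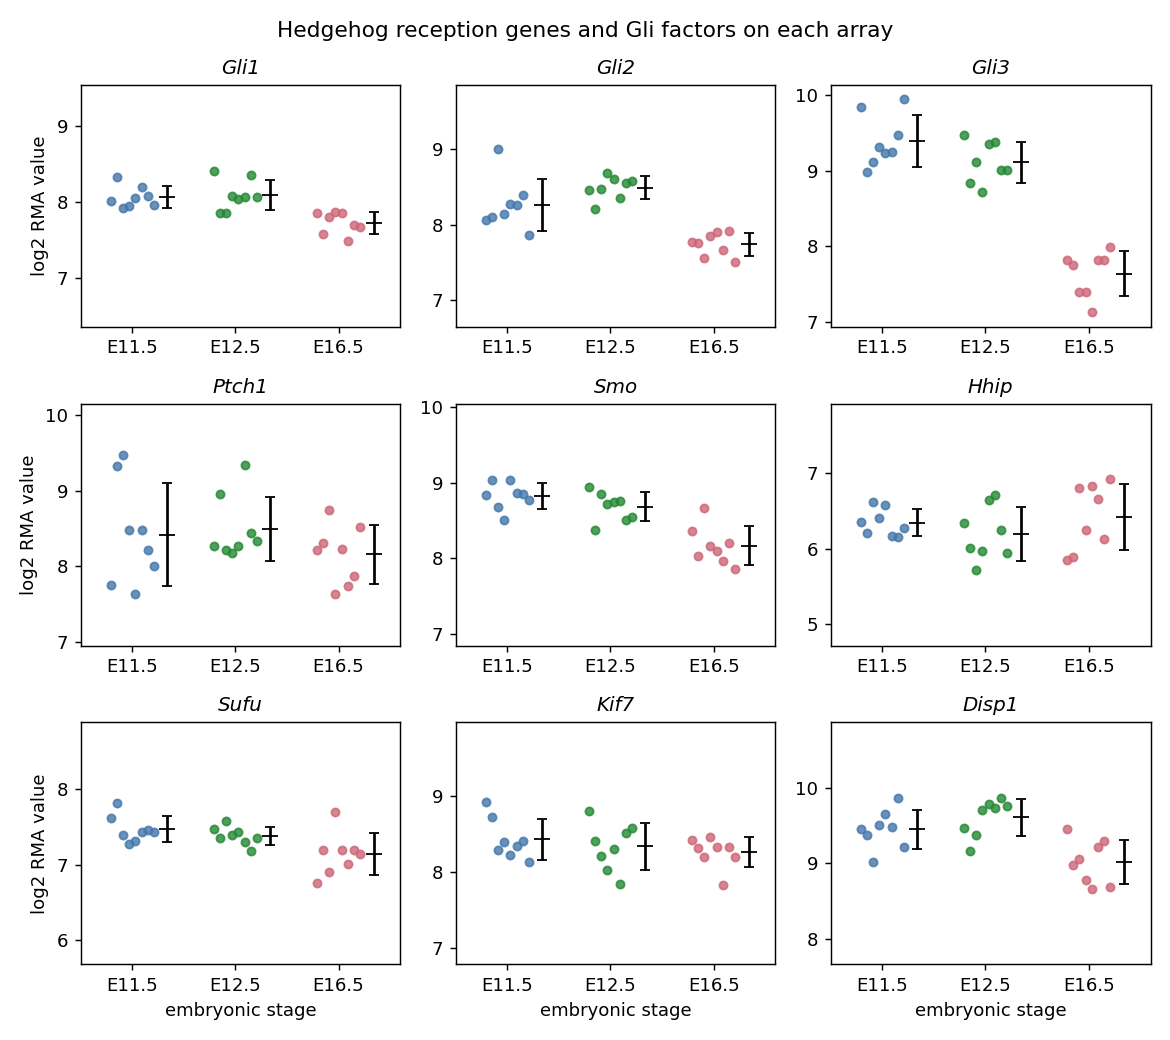
Log2 signal of the 9 genes (y axes) in each of the 24 arrays, by embryonic stage (x axes), with 1 point per array and black bars for the mean and SD of 8 arrays. Gli3 falls to between 7.12 and 7.99 at E16.5, below all E11.5 and E12.5 arrays, while the Ptch1 and Kif7 arrays of the 3 stages overlap.

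Between the fold stages none of the 9 genes passed the test, and between the folds and the diaphragm most were lower in the diaphragm. In E16.5 diaphragm against E12.5 folds, 5 of 9 were lower (Gli1, Gli2, Gli3, Smo and Disp1) and 0 were higher at an adjusted p under 0.05 from limma, where 15.6% of all genes were lower. Against E11.5 folds, 6 of 9 were lower, Sufu being the sixth, and 0 were higher, where 19.6% of all genes were lower. The median change of the 9 genes was -0.37 log2 units against E12.5, where the median of all genes was -0.02, and -0.34 against E11.5, where it was -0.08. Both comparisons use the same E16.5 arrays, and the E12.5 arrays serve in the comparison with E11.5 too.

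Gli3 (probe set 10403727), whose protein is the main repressor among the Gli factors, changed most. Its signal had a lowest, median and highest value of 8.98, 9.28 and 9.94 in E11.5 folds, of 8.72, 9.06 and 9.47 in E12.5 folds and of 7.12, 7.78 and 7.99 in E16.5 diaphragm. Every E16.5 array lay below every fold array, and the fold stages overlapped. Gli3 averaged 7.64 ± 0.30 in E16.5 diaphragm and 9.11 ± 0.27 in E12.5 folds (SD, n = 8 each), a change of -1.47 ± 0.15 log2 units (SE, limma adjusted p = 2.15e-08) to 36.0% of the E12.5 level. Against E11.5 folds, which averaged 9.39 ± 0.34, the change was -1.76 ± 0.15 (adjusted p = 6.76e-10), to 29.6% of the E11.5 level.

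Gli2 (probe set 10357137), the main activator, ran from 7.86 to 8.996 in E11.5 folds with a median of 8.20, from 8.21 to 8.69 in E12.5 folds with a median of 8.51, and from 7.50 to 7.91 in E16.5 diaphragm with a median of 7.76. The diaphragm arrays lay below all E12.5 arrays and overlapped those of E11.5. The change was -0.75 ± 0.11 log2 units against E12.5 (adjusted p = 1.42e-05), to 59.6% of the E12.5 level, and -0.52 ± 0.11 against E11.5 (adjusted p = 0.000876).

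Gli1 (probe set 10373179), an activator that Hedgehog signalling itself induces, had the smallest falls of the 3. It ran from 7.91 to 8.34 in E11.5 folds (median 8.03), from 7.85 to 8.41 in E12.5 folds (median 8.07) and from 7.49 to 7.87 in E16.5 diaphragm (median 7.75). The diaphragm arrays lay below all E11.5 arrays and overlapped the lowest of E12.5. The change was -0.37 ± 0.08 against E12.5 (adjusted p = 0.00157) and -0.34 ± 0.08 against E11.5 (adjusted p = 0.00291). Non-overlapping arrays, counted in the lower direction, were thus seen for 2 of 9 genes against E12.5 and for 2 of 9 against E11.5, where 5.4% and 3.86% of all genes had them.

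The signals of the 3 Gli genes did not fall by the same amount. Their differences were taken within each array and compared between stages with exact permutation tests (two-sided, adjusted over 9 tests), a choice made after the values were seen. A difference between probe sets has no zero of its own, so that only its change between stages is read. Gli1, Gli2 and Gli3 averaged 8.09, 8.49 and 9.11 in E12.5 folds and 7.72, 7.74 and 7.64 in E16.5 diaphragm. Low signals are compressed on these arrays, and whether this limited the falls of Gli1 and Gli2 was not tested. Gli3 minus Gli1 was lower by 1.11 ± 0.17 log2 units in E16.5 diaphragm than in E12.5 folds (SE, n = 8 each) and by 1.42 ± 0.21 than in E11.5 folds, without overlap in either case (adjusted p = 0.000699 for both, from the smallest p that 8 against 8 arrays allow, 0.000155). Gli3 minus Gli2 was lower by 0.73 ± 0.18 than at E12.5 (exact test, adjusted p = 0.00392) and by 1.24 ± 0.25 than at E11.5 (adjusted p = 0.00140), with overlap. Gli2 minus Gli1 was lower by 0.38 ± 0.10 than at E12.5 (exact test, adjusted p = 0.00392), a call lost without E16.5 replicates 1 to 4 (-0.32, adjusted p = 0.0509). Its change against E11.5 was -0.18 ± 0.15 (exact test, adjusted p = 0.287).

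**Figure D2:**
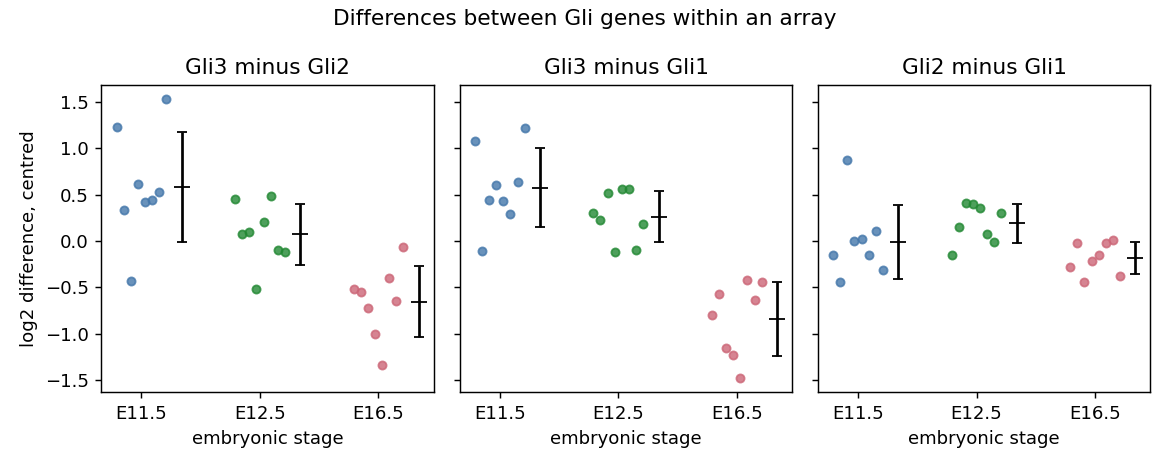
Log2 difference between Gli genes within an array, centred on its mean over the 24 arrays (y axis), by embryonic stage (x axis), with 1 point per array and black bars for the mean and SD of 8 arrays. Gli3 minus Gli1 is lower in all E16.5 arrays than in any fold array, and Gli2 minus Gli1 overlaps between all stages.

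Of the genes at the cell surface, Smo (probe set 10536917), the membrane protein that relays the signal, was lower in the diaphragm. It ran from 8.51 to 9.04 in E11.5 folds (median 8.84), from 8.37 to 8.94 in E12.5 folds (median 8.73) and from 7.85 to 8.67 in E16.5 diaphragm (median 8.13). Only the upper end of the diaphragm arrays reached into the range of the folds. The change was -0.51 ± 0.10 against E12.5 (adjusted p = 0.000440) and -0.66 ± 0.10 against E11.5 (adjusted p = 2.03e-05).

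Ptch1 (probe set 10410039), the ligand receptor and a target of the pathway, varied more between samples than the other members in the folds. It ran from 7.63 to 9.47 in E11.5 folds (median 8.34), from 8.18 to 9.34 in E12.5 folds (median 8.30) and from 7.63 to 8.74 in E16.5 diaphragm (median 8.22), so that the stages overlapped widely. Its SD was 0.68 in E11.5 folds, 0.42 in E12.5 folds and 0.39 in E16.5 diaphragm. The change was -0.34 against E12.5 (95% interval -0.84 to 0.16, adjusted p = 0.348) and -0.26 against E11.5 (interval -0.76 to 0.24, adjusted p = 0.427), so that neither a fall of the size seen for Smo nor no change was excluded.

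Hhip (probe set 10579894), which binds ligand at the surface without passing the signal on, lay near the bottom of the measured range. It was below the lower quartile of the array's genes in 6 of 8 E11.5 arrays, 6 of 8 E12.5 arrays and 4 of 8 E16.5 arrays. Its change was 0.22 (95% interval -0.12 to 0.55) against E12.5 and 0.07 (interval -0.27 to 0.40) against E11.5, and neither passed the test (adjusted p = 0.376 and 0.772). A difference at so low a signal may not have been detectable.

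Because Gli1, Ptch1 and Hhip are all known as targets, their signals were compared between arrays within each stage. None of the 9 relations passed an exact permutation test with Pearson's r (lowest adjusted p = 0.847). For Gli1 and Ptch1 the exact test gave r = 0.26 (p = 0.555) and rho = 0.00 (p = 1) in E11.5 folds (n = 8), and r became -0.69 without the 2 arrays farthest from the Gli1 median. In E12.5 folds r was -0.22 (exact p = 0.653) and rho -0.12 (p = 0.793), with r = -0.04 without such arrays, and in E16.5 diaphragm r was 0.12 (p = 0.774) and rho -0.21 (p = 0.619), with r = -0.26 without them. The 6 relations with Hhip had r between -0.62 and 0.45. By rho, 1 of the 9 relations had an unadjusted p under 0.05, that of Gli1 and Hhip in E11.5 folds. Its rho was -0.74 (exact permutation test, p = 0.0458, adjusted p = 0.4125), at an Hhip signal near the bottom of the range. With 8 arrays to a stage, only strong relations could have passed.

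Sufu (probe set 10463645), which binds Gli proteins and holds them out of the nucleus, gave a smaller difference. It ran from 7.28 to 7.81 in E11.5 folds (median 7.43), from 7.18 to 7.57 in E12.5 folds (median 7.37) and from 6.75 to 7.70 in E16.5 diaphragm (median 7.16). One diaphragm array lay above all E12.5 arrays and the other 7 lay between 6.75 and 7.20. The change was -0.33 ± 0.10 against E11.5 (adjusted p = 0.0126) and -0.25 ± 0.10 against E12.5 (adjusted p = 0.0716). The call against E11.5 was lost without E16.5 replicates 5 to 8 (-0.33, adjusted p = 0.0709), and without E16.5 replicate 4, the high array, the change against E12.5 passed (-0.33, adjusted p = 0.00451).

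Kif7 (probe set 10564791), a kinesin at the tip of the cilium that regulates Gli processing, had medians of 8.37, 8.36 and 8.32 in E11.5 folds, E12.5 folds and E16.5 diaphragm, over a whole range of 7.83 to 8.93. Its change was -0.08 ± 0.13 against E12.5 (adjusted p = 0.742) and -0.17 ± 0.13 against E11.5 (adjusted p = 0.317). The second probe set of Kif7 (10564777), dimmer on average, was lower in the diaphragm, with a change of -0.30 ± 0.10 against E12.5 (adjusted p = 0.0276) and -0.32 ± 0.10 against E11.5 (adjusted p = 0.0141), in a fit over all single-gene probe sets. The probe sets of Kif7 thus disagree on the call, though not on the direction.

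Disp1 (probe set 10468909), needed in cells that send the signal, ran from 9.01 to 9.86 in E11.5 folds (median 9.47), from 9.16 to 9.87 in E12.5 folds (median 9.72) and from 8.66 to 9.46 in E16.5 diaphragm (median 9.01). The diaphragm median lay close to the lowest E11.5 value and below the lowest E12.5 value, and the diaphragm arrays above it overlapped the folds. The change was -0.59 ± 0.13 against E12.5 (adjusted p = 0.000976) and -0.43 ± 0.13 against E11.5 (adjusted p = 0.0116), and the call against E11.5 was lost without E16.5 replicates 5 to 8 (-0.38, adjusted p = 0.0679). Its second probe set changed by -0.49 (adjusted p = 0.110) and -0.41 (adjusted p = 0.161) in the same comparisons and did not pass.

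**Figure D3:**
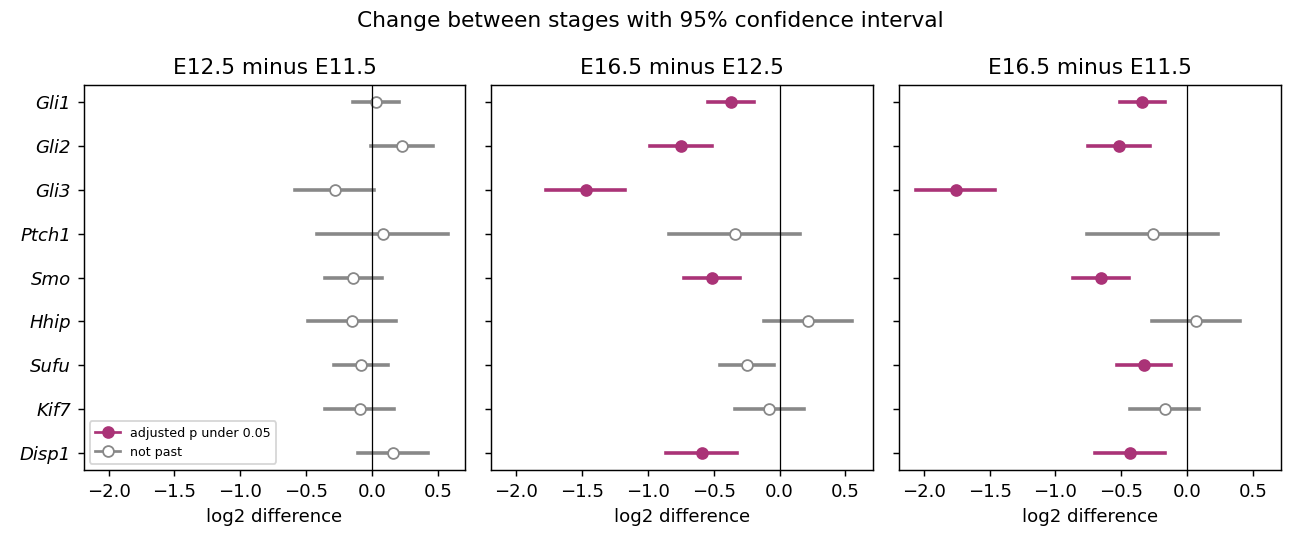
Log2 change of each of the 9 genes (x axis, later minus earlier stage) in the 3 comparisons, with bars for the 95% confidence interval from limma and filled points for an adjusted p under 0.05. Gli3 has the lowest values against both fold stages, and no point is filled for E12.5 against E11.5.

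Between E12.5 and E11.5 folds, 0 of 9 genes passed in either direction, where 0.388% of all genes did, and 0 had an unadjusted p under 0.05 or passed an unmoderated unequal-variance test. The largest differences were 0.23 ± 0.11 for Gli2 (adjusted p = 0.357) and -0.28 ± 0.15 for Gli3 (adjusted p = 0.373). The Gli differences within arrays did not pass either, with changes of -0.31 for Gli3 minus Gli1 (exact test, adjusted p = 0.132), -0.51 for Gli3 minus Gli2 (adjusted p = 0.0767) and 0.20 for Gli2 minus Gli1 (adjusted p = 0.268). E11.5 replicate 3, the array with the highest Gli2 signal, decides the last pair: without it they were -0.66 (adjusted p = 0.00420) and 0.33 (adjusted p = 0.0132). Without E11.5 replicate 2 the first was -0.41 (adjusted p = 0.0350).

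Most mesenchymal markers fell over the same interval, 10 of 15 being called lower and 1 higher against E12.5. Each gene was therefore also set against the mean of the 15 mesenchymal markers within its array. This choice was again made after the values were seen, and the exact permutation tests were adjusted over 27. The median change of the 15 markers was -0.85 against E12.5 and -0.89 against E11.5, and a fall beyond their mean is not a fall beyond each of them. Gli3 fell by more than that mean, by a further 0.76 ± 0.11 against E12.5 and 0.93 ± 0.17 against E11.5 (SE, n = 8 each, exact test, adjusted p = 0.00140 for both), without overlap. Gli1 fell by less, with a change relative to the mean of 0.34 ± 0.09 against E12.5 (adjusted p = 0.0117) and 0.49 ± 0.09 against E11.5 (adjusted p = 0.00336). The first of these Gli1 calls was lost without E16.5 replicates 1 to 4 (0.33, adjusted p = 0.0744). For Gli2 the change relative to the mean was -0.04 ± 0.09 against E12.5 (adjusted p = 0.807) and 0.31 ± 0.12 against E11.5 (adjusted p = 0.0542). For Gli2 in E12.5 against E11.5 folds it was 0.35 ± 0.12 (adjusted p = 0.0346).

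Other genes of the pathway were read from a list by role, of which 39 were analysed here. In E16.5 diaphragm against E12.5 folds, 17 of 39 were lower and 1 was higher, with a median change of -0.21, where 3018 of all 19351 genes (15.6%) were lower and 2223 higher. Against E11.5 folds 16 were lower and 1 higher, with a median of -0.16, where 3799 of all genes (19.6%) were lower and 2680 higher. The counts by role below rest on few genes and are to be read against these shares. Between the fold stages 0 of 39 passed, 6 of them having an unadjusted p under 0.05, and the median change was 0.01.

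No ligand passed in any comparison. Shh changed by 0.01 ± 0.07 against E12.5 (adjusted p = 0.975), Ihh by -0.10 ± 0.07 (adjusted p = 0.296) and Dhh by 0.08 ± 0.07 (adjusted p = 0.423). Shh lay between 6.77 and 7.21 in E16.5 diaphragm, against 6.75 to 7.20 in E12.5 folds. Among the genes of an array its median percentile was 36.2 at E12.5 and 35.5 at E16.5. That of Dhh was 36.0 and 38.8, and that of Ihh 56.4 and 55.7. Whether these signals stand above background was not tested, so steady expression of a ligand is not read from them. Of the genes that help release ligand, Scube3, a secreted protein, was lower (-0.91 ± 0.09, adjusted p = 1.48e-08), and in all 2 of 8 genes of the ligand group were lower, a share near the 15.6% of all genes.

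Among co-receptors and ligand-binding proteins 2 of 3 were lower. Boc, a co-receptor that binds the ligand together with Ptch1, changed by -0.52 ± 0.09 against E12.5 (adjusted p = 7.97e-05) and -0.48 ± 0.09 against E11.5 (adjusted p = 0.000196). Gpc3, a glypican that competes with Ptch1 for ligand, averaged 10.64 ± 0.19 in E16.5 diaphragm and 11.95 ± 0.18 in E12.5 folds (SD, n = 8 each), a change of -1.32 ± 0.08 (adjusted p = 9.84e-12). Gas1, another co-receptor, changed by -0.03 ± 0.08 against E12.5 (adjusted p = 0.870) and -0.02 ± 0.08 against E11.5 (adjusted p = 0.860).

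Of 9 genes of the cilium and the relay from Smo, 5 were lower and 0 higher against E12.5, and 3 were lower and 0 higher against E11.5. Of 8 genes of Gli processing and degradation, 2 were lower and 1 was higher, shares near those of all genes. The higher gene was Spop, an adaptor that directs Gli2 and Gli3 to a ubiquitin ligase. It rose by 0.71 ± 0.14 against E12.5 (adjusted p = 0.000248) and by 0.87 ± 0.14 against E11.5 (adjusted p = 1.52e-05). The E12.5 and E16.5 arrays were barely apart, the highest E12.5 value being 10.6804 and the lowest E16.5 value 10.6805. Spop lay between 11.27 and 11.60 in E16.5 replicates 1 to 4 and between 10.68 and 10.97 in replicates 5 to 8. Of 11 genes known as Hedgehog targets in mesenchyme, 6 were lower and 0 higher against E12.5, and 7 were lower against E11.5. Foxf2 and Foxl1, not called, lay below the lower quartile of the array's genes in 5 and 6 of 8 E12.5 arrays. Each did so in 5 of 8 E16.5 arrays, and a fall at so low a signal may not have been detectable. Sfrp1, a secreted Wnt inhibitor, changed by -1.97 ± 0.15 against E12.5 (adjusted p = 2.03e-10). The forkhead factors Foxc2 and Foxf1 changed by -1.68 ± 0.30 (adjusted p = 0.000110) and -1.41 ± 0.33 (adjusted p = 0.00179), and Ccnd2, a D cyclin, by -1.48 ± 0.08 (adjusted p = 1.61e-12). For both forkhead factors the E16.5 and E12.5 arrays overlapped. Foxc2 ran from 6.60 to 9.08 at E16.5 and from 8.37 to 9.97 at E12.5. Foxf1 ran from 7.82 to 10.12 at E16.5 and from 9.47 to 10.92 at E12.5. The Foxf1 call was lost without E16.5 replicates 1 to 4 (-1.14, adjusted p = 0.0541). All of these target genes have other regulators as well.

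**Figure D4:**
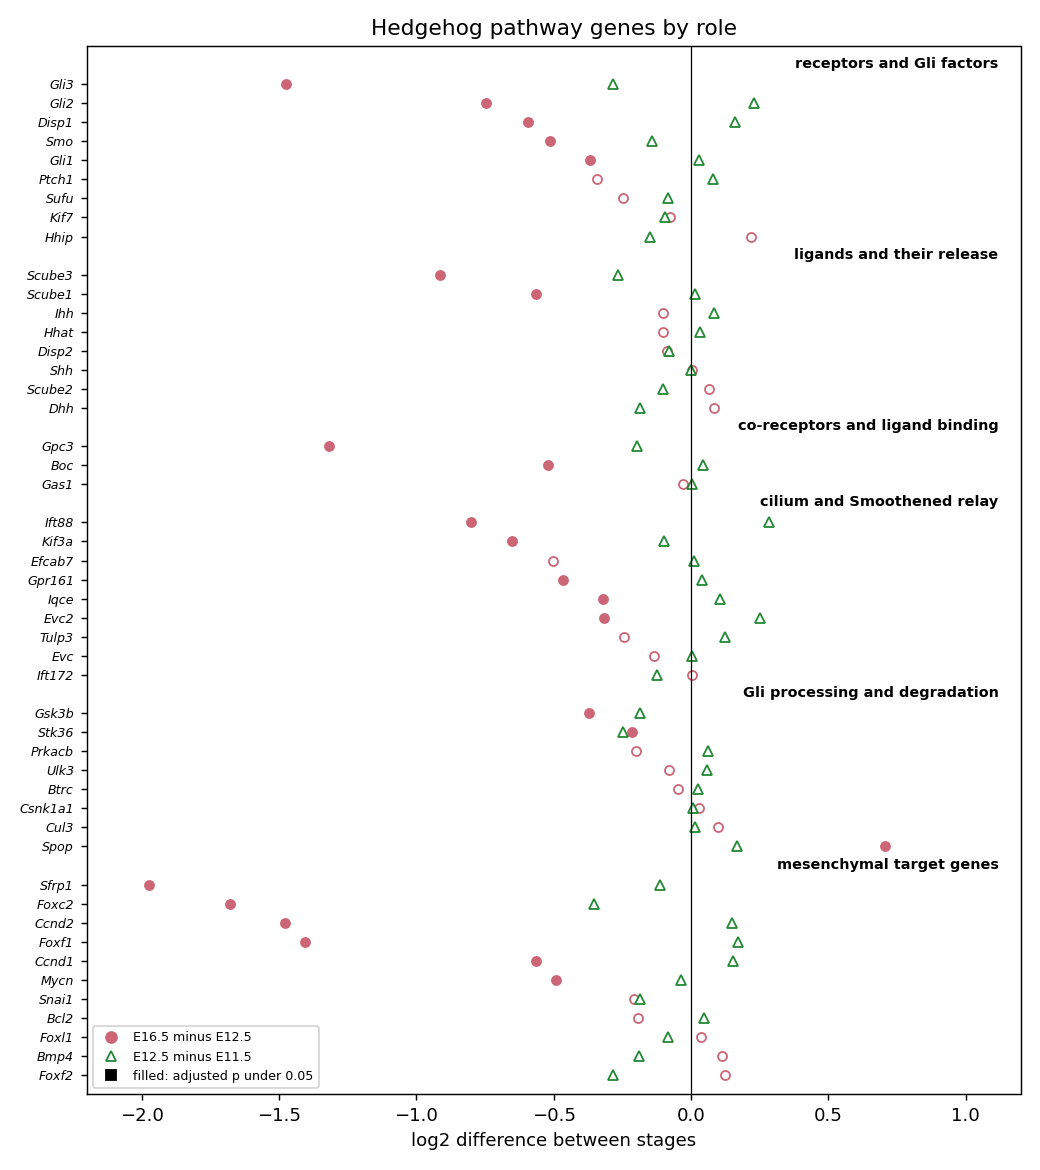
Log2 change (x axis) of the 9 genes and the other 39 measured Hedgehog pathway genes (y axis, by role), with circles for E16.5 minus E12.5, triangles for E12.5 minus E11.5 and filled symbols for an adjusted p under 0.05. Filled circles lie to the left of 0 for 5 of the 9 genes and 17 of the 39 and to the right for Spop, and no triangle is filled.

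The genes closest to each member were found by the root mean square difference over the 24 arrays after centring each gene on its own mean. The values were not scaled, so this measures likeness in the size of the changes as well as in their pattern, and nothing more. For Gli3 they were Chd3 at 0.292, Gpc3 at 0.294 and Meis2 at 0.307 log2 units, against a median of 0.824 over all genes. Chd3 changed by -1.61, Gpc3 by -1.32 and Meis2 by -1.69 in E16.5 diaphragm against E12.5 folds. Chd3 encodes a chromatin remodeller and Meis2 a homeodomain factor. For Gli2 the closest were Gar1 (0.212), Astn1 (0.213) and Prmt5 (0.221), and for Gli1 they were Azin2 (0.126), Phf13 (0.138) and Doc2a (0.139). Plppr3, Zfp574 and Tanc1 were closest to Smo, Gna14, Hrh3 and Begain to Sufu, and Gnb1, Rnf157 and Fam118b to Disp1. Among the members themselves Gli1 was closest to Smo (0.228) and to Sufu (0.232), against a median of 0.314 over all genes. Gli3, which had the largest changes, was at least 0.603 from each of the others.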

How the data were processed

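Laser-captured RNA of 24 samples, 8 per stage, was amplified (WT-Ovation Pico) and hybridised to Mouse Gene 1.0 ST arrays, per the labels' protocols. The deposited values are log2 intensities; the submitters' processing notes list RMA, R 2.9.2 and Affymetrix Expression Console 1.1. RMA subtracts background and equalises the distributions of the arrays, so values are relative, and low signals are compressed. The log2 scale was read from the values, 2.56 to 14.1, with array medians from 7.44 to 7.55. The number of arrays limits the precision.

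Of 24200 probe sets, 20760 matched 1 gene, 1140 several and 2300 none, by GEO's platform annotation. Where a gene had more than 1 probe set (804 genes), the brightest on average stood for it. This gave 19351 genes, and none was filtered out for low signal. One limma model (version 3.58.1, R 4.3.3) of stage over all 24 arrays, with moderated variances and without covariates, gave two-sided p-values, which were adjusted across every gene (Benjamini-Hochberg, threshold 0.05). The fit was tested on simulated data. Changes are later minus earlier stage on the log2 scale. Exact permutation tests of within-array differences and of correlations were run in Python 3.11.15 with numpy 2.4.6. Values were ranked for rho with scipy 1.17.1. The other software was matplotlib 3.10.9 and pandas 2.3.3.

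All members are named. Of the pathway list, Shh, Ihh, Dhh, Boc and Gas1 are named always, with up to 4 of the largest called rises and falls in each comparison, and Scube3, Evc, Bmp4, Bcl2, Foxf2 and Foxl1 were named after their values were seen. Up to 4 marker genes per list could be named, in list order, and Prrx1, Myod1, Isl1 and Nefm were named after their values were seen. For called members the 3 nearest genes are named, without unnamed gene models, receptors of smell and small RNAs. The members and lists were chosen with earlier results of these data known.

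Replicate numbers 1 to 8 recur in each stage. In 24 pairs of arrays with the same number the correlation of deviations from the stage means ran from -0.28 to 0.09, with 0 pairs over 0.1, so the numbers do not pair the samples. Alternatives were other normalizations, filters, variance models and probe set rules, the replicate number as a block, and arrays left out.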

Additional observations from a re-analysis of the deposited data

Results flagged for a closer look

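In 6 of 144 groups of 8 arrays, over the 9 genes and the 39 other pathway genes, 1 array stood apart from the rest by Dixon's test, and chance gives about 1 in 20. Of the 27 groups of the 9 genes, 3 had such an array. Gli2 was 8.996 in E11.5 replicate 3, where the other E11.5 arrays lay between 7.86 and 8.40. Sufu was 7.70 in E16.5 replicate 4, where the others lay between 6.75 and 7.20. Kif7 was 7.83 in E16.5 replicate 6, where the others lay between 8.19 and 8.46. Among the other pathway genes, Evc in E16.5 replicate 8 (7.82, others 7.97 to 8.10), Bmp4 in E12.5 replicate 4 (7.68, others 8.65 to 9.44) and Bcl2 in E12.5 replicate 2 (8.16, others 8.61 to 8.94) stood apart.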

How the results depend on the processing

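The 5 of 9 genes lower against E12.5 became 5 to 6, and the 6 of 9 lower against E11.5 became 4 to 7, over 38 alternatives, and the count for E12.5 against E11.5 was 0 in each. The pathway counts of 18 and 17 became 13 to 19 and 15 to 18. With the replicate number as a block, which the arrays do not bear out as a pairing, the counts of members were 5, 6 and 0. The number of all genes called in E12.5 against E11.5, 75, depended on the setting: it was 9 with only the 2 stages in the fit, 43 with the replicate block, 49 after quantile normalization again, 120 with array weights, 0 in the unmoderated test, 114 without E12.5 replicates 2 and 4, 32 without E16.5 replicates 1 to 4 and 34 without replicates 5 to 8, and 26 to 151 with each array left out in turn. The lowest came without E12.5 replicate 1 and the highest without E12.5 replicate 2. The share of these calls that were higher was 85.3%, against 62.7% with arrays centred on the median and 51.6% with the 75th percentile. Without E16.5 replicates 1 to 4 the calls over all genes were 3479 against E12.5 and 4265 against E11.5, from 5241 and 6479, and without replicates 5 to 8 they were 4918 and 5481; the cause was not tested.

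Of 1017 values of the 9 genes under the alternatives, 1000 kept direction and side of the threshold, 3 lost the call, 3 gained it and 11 turned sign; beside those given above, Sufu against E11.5 had an adjusted p of 0.0535 in the unmoderated test, Sufu against E12.5 one of 0.0416 with array weights, and Kif7 against E11.5 passed with the mean of its probe sets (-0.25, adjusted p = 0.0448). No value that turned sign had passed the test, and the cause was not tested. With each array left out, in E12.5 against E11.5 Gli1 ran from -0.0159 to 0.0681, Ptch1 from -0.0403 to 0.231, Shh from -0.0317 to 0.0325, Gas1 from -0.0198 to 0.0460 and Foxf1 from -0.00129 to 0.302. E16.5 against E11.5 ran from -0.00311 to 0.150 for Hhip, -0.0275 to 0.0366 for Shh, -0.0615 to 0.00906 for Ihh and -0.0826 to 0.00666 for Gas1, and against E12.5 from -0.0287 to 0.0378 for Shh and -0.0878 to 0.000352 for Gas1. In E12.5 against E11.5, quantile normalization gave -0.0386 for Gli1, 0.00960 for Shh, -0.0300 for Boc and -0.0682 for Gas1, centring on the median -0.00115 for Gli1 and -0.0251 for Gas1, centring on the 75th percentile -0.0426 for Gli1, -0.0274 for Boc and -0.0666 for Gas1, and array weights 0.0160 for Shh. In E16.5 against E12.5, quantile normalization gave -0.00499 for Shh and 0.0145 for Gas1, the 75th percentile 0.0216 for Gas1 and array weights -0.0137 for Shh. In E16.5 against E11.5, Shh was -0.0153 and -0.0190 with the median and the 75th percentile. Without E16.5 replicates 1 to 4, Shh was -0.0360 against E12.5 and -0.0372 against E11.5, and Gli2 minus the mesenchymal mean 0.00401 against E12.5. Without replicates 5 to 8, Kif7 was 0.0125 and Gas1 0.112 against E12.5, and Hhip -0.148, Ihh 0.0308 and Gas1 0.117 against E11.5. Without the 2 arrays farthest from the median, r was -0.689 and -0.264 for Gli1 and Ptch1 at E11.5 and E16.5 and -0.597 for Ptch1 and Hhip at E11.5, and it was 0.0307 for Gli1 and Hhip at E16.5 with arrays centred on the median. Signal near background limits what can be read for Hhip.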

Other observations

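Relative to the mean of the mesenchymal markers in the same array, Kif7 and Sufu were higher in the diaphragm than in the folds. That mean itself fell from 9.01 in E12.5 folds to 8.30 in E16.5 diaphragm, so a gene without change comes out higher. Kif7 itself changed by -0.08 and Sufu by -0.25 against E12.5, so no rise of either gene is read from it. The second Kif7 probe set was lower (-0.30, limma adjusted p = 0.0276). The change of Kif7 relative to the mean was 0.63 ± 0.14 log2 units in E16.5 diaphragm against E12.5 folds (SE, n = 8 each, exact permutation test, adjusted p = 0.00350) and 0.66 ± 0.13 against E11.5 folds (adjusted p = 0.00420). For Sufu it was 0.46 ± 0.12 against E12.5 (exact test, adjusted p = 0.00577) and 0.50 ± 0.14 against E11.5 (adjusted p = 0.0126). Both Sufu calls were lost without E16.5 replicates 5 to 8, with changes of 0.43 and 0.47 (exact test, adjusted p = 0.0545 and 0.0727). For Hhip, whose signal lay near the bottom of the range, the change was 0.93 ± 0.20 against E12.5 (exact test, adjusted p = 0.00315) and 0.90 ± 0.18 against E11.5 (adjusted p = 0.00140), and no direction for Hhip itself is read from it. Disp1 changed by 0.12 ± 0.12 relative to the mean against E12.5 (exact test, adjusted p = 0.437) and by 0.40 ± 0.14 against E11.5 (adjusted p = 0.0278), a call lost without E16.5 replicates 1 to 4 (0.38, adjusted p = 0.117) or 5 to 8 (0.42, adjusted p = 0.0839). Leaving replicates out leaves fewer arrays for the exact test, and the sizes of these Sufu and Disp1 changes moved little. Smo changed by 0.20 ± 0.09 and 0.18 ± 0.11 relative to the mean against E12.5 and E11.5 (exact test, adjusted p = 0.0575 and 0.206), and Ptch1 by 0.37 ± 0.21 and 0.57 ± 0.27 (adjusted p = 0.146 and 0.0915). The Smo change against E12.5 passed without E16.5 replicates 5 to 8 (0.30, adjusted p = 0.0341).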
